A study of Mus musculus with 8 samples.

Results

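The genes described here encode the subunits and dedicated regulators of the proteasome. They were taken by symbol, as every listed gene whose name begins with Psma, Psmb, Psmc, Psmd, Psme, Psmf or Psmg followed by a number. This rule uses no measured value, but members were chosen with earlier results of these data known. The rule gave 43 of the 8562 listed genes. Epididymal white adipose tissue (eWAT, the fat pad beside the testis) came from AdipoQ-Cre;HuRf/f male mice (HuR-FKO) and from littermate HuRf/f males (Ctrl), all aged 6 weeks. Both genotypes carry floxed alleles of the gene for HuR (Elavl1), an RNA-binding protein, and the adiponectin promoter drives Cre in adipocytes, so that other cells of the fat pad keep HuR. Each replicate is a pool of fat from 3 mice, and one share of it went into mRNA sequencing and the other into ribosome profiling, which counts ribosome-protected fragments (RPF), the stretches of mRNA that ribosomes cover. There were 2 pools for each genotype, hence 4 groups of 2 libraries.

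The proteasome degrades proteins tagged with ubiquitin. Its 20S core is a barrel of outer alpha rings, which form the gate, and inner beta rings, of which the subunits beta1, beta2 and beta5 carry the proteolytic sites. The 19S cap recognises ubiquitin, removes it and feeds the substrate into the barrel: its base holds a ring of ATPases (Psmc) and large scaffold proteins, and its lid holds the deubiquitinase Psmd14. In immune cells, and in other cells after interferon, Psmb8, Psmb9 and Psmb10 take the places of the active subunits Psmb5, Psmb6 and Psmb7, which gives the immunoproteasome. In brown fat the proteasome is known for its regulation by the transcription factor NRF1 (Nfe2l1), which raises its subunit genes together.

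By these roles the 43 genes comprised 7 alpha subunits, 4 beta subunits without an active site, 3 constitutive and 3 immunoproteasome active-site subunits, 6 ATPases, 3 other base subunits, 8 lid subunits, 3 chaperones of 19S assembly, 1 chaperone of 20S assembly and 5 activators or inhibitors. All 43 had a mean above 1 RPKM (coding reads for each kilobase of coding sequence, relative to library depth) in both assays, and none was lost to the filter on low values. The table lists only genes above 1 RPKM in every library, so a proteasome gene below that level was not analysed here.

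Coding reads numbered between 5223721 and 8060054 for an mRNA library and between 531966 and 1311977 for an RPF library. Each proteasome gene was covered by 60 to 3077 reads of mRNA and by 5 to 362 reads of RPF in a library. Elavl1 did not separate the genotypes in mRNA. It had 41.6 and 43.3 RPKM in HuR-FKO against 40.8 and 49.8 RPKM in Ctrl (log2 difference -0.08 ± 0.13 SE, adjusted p = 0.70, limma), and 56.0 and 63.3 RPKM of RPF in HuR-FKO against 64.6 and 81.8 RPKM in Ctrl (-0.28 ± 0.20, adjusted p = 0.67). The genotypes below therefore rest on the labels. All 15 adipocyte markers were listed. At an adjusted p under 0.05 (limma) 1 was higher in HuR-FKO mRNA (Pnpla2), where 7.5% of all genes were. In the other direction 2 were lower (Lep and Slc2a4), where 6.54% of all genes were. In bulk tissue, fewer cells of a type and less RNA per cell cannot be told apart.

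Of the proteasome mRNAs only Psmb5 and Psmb9, which encode active subunits of the beta ring, passed the test between HuR-FKO and Ctrl. Both fell, which is 2 of 43 members (4.65%) against 6.54% of all genes, and 0 rose against 7.5% of all genes (limma, Benjamini-Hochberg adjusted p under 0.05 over 8562 genes). At an unadjusted p under 0.05 the counts were 8 lower, where 14.2% of all genes were, and 0 higher, where 16.4% were. With limma's voom on recovered reads 3 were lower, where 7.2% of the genes tested were, and 0 higher, where 10.6% were. The shares of members called lower are near these backgrounds. The estimate was below 0 for 35 members and above 0 for 8, and its median was -0.14 on the log2 scale, against 0.02 over all genes. Both HuR-FKO libraries lay below both Ctrl libraries for 24 members (55.8%), where 27.8% of all genes did so, and above them for 4 members (9.3%), where 32.5% of all genes did so. These members are not independent of each other: Ctrl replicate 2 exceeded Ctrl replicate 1 for 38 of the 43 and HuR-FKO replicate 2 exceeded HuR-FKO replicate 1 for 35, against 54.6% and 54.3% of all genes. Without Ctrl replicate 2 the median was -0.08, and without HuR-FKO replicate 1 it was -0.08. Their transcripts were also short, with a median of 1512 bases against 2981 over all genes, and after the trend with transcript length and G+C content was removed from each library the median was -0.07 and 0 members passed.

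**Figure D1:**
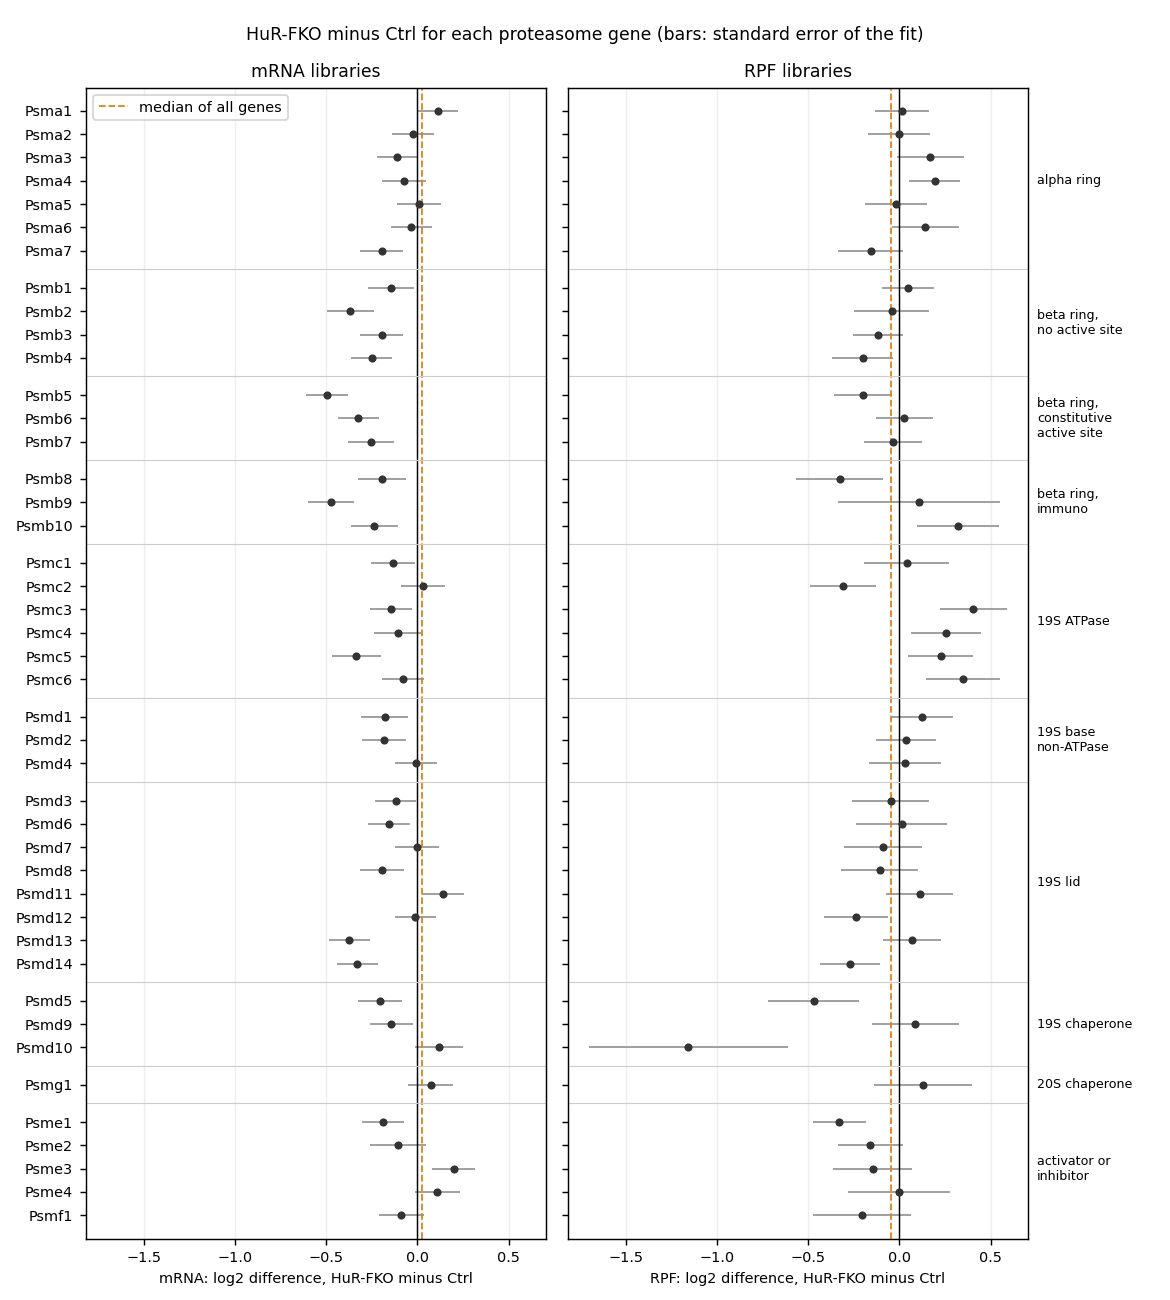
Log2 difference of HuR-FKO minus Ctrl (x axis, log2 of RPKM + 1) for each of the 43 proteasome genes (rows, grouped by role), in mRNA on the left and RPF on the right. Points are fitted estimates, bars their standard errors and the dashed line the median of all 8562 genes. In mRNA 35 of the 43 points lie below 0, including every beta subunit, while in RPF 22 lie below 0 and 21 above.

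By their medians the estimates of the alpha ring genes lay closer to 0 than those of the beta ring genes. The 7 alpha genes (Psma1 to Psma7) had a median difference of -0.03, with 5 estimates below 0 and 2 above. Their HuR-FKO libraries lay below Ctrl for Psma3 and Psma7 (28.6%, where 27.8% of all genes did so). They lay above Ctrl for Psma1 (14.3%, against 32.5% of all genes) and overlapped for the other 4. The 7 constitutive beta genes (Psmb1 to Psmb7) had a median of -0.26, with all 7 estimates below 0, where 46.6% of all genes were. Both HuR-FKO libraries lay below both Ctrl libraries for 6 of them (85.7%), where 27.8% of all genes did so. The beta genes also had shorter transcripts, with a median of 899 bases against 1201 for the alpha genes. With the trend in length and G+C removed the median of the 14 constitutive 20S genes was -0.10, against -0.17 without this correction. The part of length in the difference between the rings was not tested. Whether the alpha and beta rings differ was not tested, since genes of one ring are not replicates.

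Psmb5 (NM_011186, GRCm38 chr14:54614119-54618022, minus strand) encodes beta5, which cuts after hydrophobic residues and is the main target of proteasome inhibitors. Its mRNA level was 131 and 116 RPKM in HuR-FKO libraries, against 174 and 176 RPKM in Ctrl libraries. Both HuR-FKO libraries were low and lay outside the narrow range of Ctrl. The log2 difference was -0.50 ± 0.12 (SE, adjusted p = 0.021, limma, n = 2 libraries each), and it was -0.26 (adjusted p = 0.13) with the trend in length and G+C removed. The call was also lost without HuR-FKO replicate 1 (adjusted p = 0.083) or replicate 2 (adjusted p = 0.17) and in a shared fit of both assays (adjusted p = 0.097).

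The other active beta subunits did not pass. Psmb6, which encodes beta1 (cutting after acidic residues), had 164 and 169 RPKM in HuR-FKO against 200 and 217 RPKM in Ctrl, a difference of -0.33 ± 0.11 with an adjusted p of 0.082 in limma. Psmb7, which encodes beta2 (cutting after basic residues), had 159 and 193 RPKM in HuR-FKO against 204 and 216 RPKM in Ctrl, a difference of -0.26 ± 0.13 with an adjusted p of 0.20 in limma. In both the genotypes did not overlap. With the trend in length and G+C removed the differences were -0.093 for Psmb6 (adjusted p = 0.58, limma) and -0.16 for Psmb7 (adjusted p = 0.33). Of the beta subunits without an active site, Psmb2, Psmb3 and Psmb4 had both HuR-FKO libraries below Ctrl and Psmb1 overlapped. Psmb2 had the largest difference of these, -0.37 ± 0.13 with an adjusted p of 0.082 in limma.

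The 3 immunoproteasome genes had lower mRNA values in both HuR-FKO libraries than in both Ctrl libraries, where 27.8% of all genes did so. Of these Psmb9 passed the test. Psmb9 (NM_013585, GRCm38 chr17:34181987-34187764, minus strand) encodes the beta1i subunit and lies in the major histocompatibility complex. Its mRNA level was 37.5 and 40.9 RPKM in HuR-FKO libraries, against 50.9 and 58.9 RPKM in Ctrl libraries. The HuR-FKO libraries were close to each other and below both Ctrl libraries. The difference was -0.47 ± 0.13 (SE, adjusted p = 0.036, limma, n = 2 libraries each), and it was -0.31 (adjusted p = 0.12) with the trend in length and G+C removed. The call was lost without HuR-FKO replicate 1 (adjusted p = 0.20), HuR-FKO replicate 2 (adjusted p = 0.14) or Ctrl replicate 2 (adjusted p = 0.11), in the shared fit (adjusted p = 0.62) and without a trend in eBayes (adjusted p = 0.056).

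Psmb8, which encodes beta5i, had 68.5 and 70.9 RPKM of mRNA in HuR-FKO against 71.3 and 89.5 RPKM in Ctrl. Psmb10, which encodes beta2i, had 65.1 and 62.9 RPKM in HuR-FKO against 68.5 and 83.3 RPKM in Ctrl. For both genes Ctrl replicate 2 stood highest and Ctrl replicate 1 lay close to HuR-FKO. Their differences were -0.20 ± 0.13 (adjusted p = 0.35, limma) for Psmb8 and -0.24 ± 0.13 (adjusted p = 0.24, limma) for Psmb10. With the trend in length and G+C removed they were -0.047 for Psmb8 (adjusted p = 0.83, limma) and -0.048 for Psmb10 (adjusted p = 0.81). The median of the 3 immunoproteasome genes was then -0.048, against -0.24 without this correction.

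Macrophages and lymphocytes express the immunoproteasome, so their markers are given beside it. Of 15 macrophage markers 14 were listed (Adgre1 was not). In mRNA 6 of them rose (42.9%, where 7.5% of all genes did) and 0 fell, where 6.54% of all genes did. Their summed level was 2817 and 2570 RPKM in HuR-FKO against 2388 and 2239 RPKM in Ctrl. Without Lyz2, the most abundant of them, the sum was 1816 and 1611 RPKM in HuR-FKO against 1529 and 1434 RPKM in Ctrl. Of 15 lymphocyte markers only 2 were listed, Cd74, which macrophages also express, and Ptprc. They summed to 988 and 936 RPKM in HuR-FKO against 936 and 919 RPKM in Ctrl, without Cd74 to 30.3 and 25.2 RPKM in HuR-FKO against 24.1 and 18.7 RPKM in Ctrl, and Cd3e, Cd4, Cd8a and Cd79a were not listed. Of 20 genes of the interferon response 19 were listed, of which 3 rose (15.8%, where 7.5% of all genes did) and 0 fell. At an unadjusted p under 0.05 (limma) the counts were 4 higher, where 16.4% of all genes were, and 3 lower (Gbp2, Iigp1 and Irf1), where 14.2% were. Their sum was 7254 and 6819 RPKM in HuR-FKO against 3656 and 2786 RPKM in Ctrl, most of it from Ifi27l2a, at 6479 and 6077 RPKM in HuR-FKO against 2953 and 2013 RPKM in Ctrl. The other 18 genes summed to 774 and 742 RPKM in HuR-FKO against 703 and 773 RPKM in Ctrl, where the genotypes overlapped. All 10 endothelial markers were listed, of which 0 rose and 0 fell in mRNA, where 7.5% and 6.54% of all genes did. They summed to 1081 and 1191 RPKM in HuR-FKO against 775 and 1311 RPKM in Ctrl, where the genotypes overlapped. The part of these cell types and of interferon in the immunoproteasome values was not tested.

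Each immunoproteasome gene was also set against the constitutive gene whose product it replaces. The Psmb8 mRNA level was 52.2% and 60.8% of the Psmb5 level in HuR-FKO against 41.0% and 50.8% in Ctrl. The genotypes did not overlap, and the log2 ratio differed by 0.30 (exact permutation test, two-sided, p = 0.33, the smallest that 2 against 2 libraries allow). The Psmb9 level was 22.9% and 24.2% of the Psmb6 level in HuR-FKO against 25.4% and 27.1% in Ctrl, a difference of -0.16 (exact p = 0.33). The Psmb10 level was 40.8% and 32.7% of the Psmb7 level in HuR-FKO against 33.6% and 38.6% in Ctrl, where the genotypes overlapped (difference 0.02, exact p = 1). In RPF the differences were -0.13 for Psmb8 over Psmb5, 0.09 for Psmb9 over Psmb6 and 0.36 for Psmb10 over Psmb7, with exact p-values of 0.67, 0.67 and 0.33. Over the 6 ratios the Benjamini-Hochberg adjusted p-values ran between 0.67 and 1, so no ratio passed this test, which cannot reach 0.05 with 2 against 2 libraries.

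**Figure D2:**
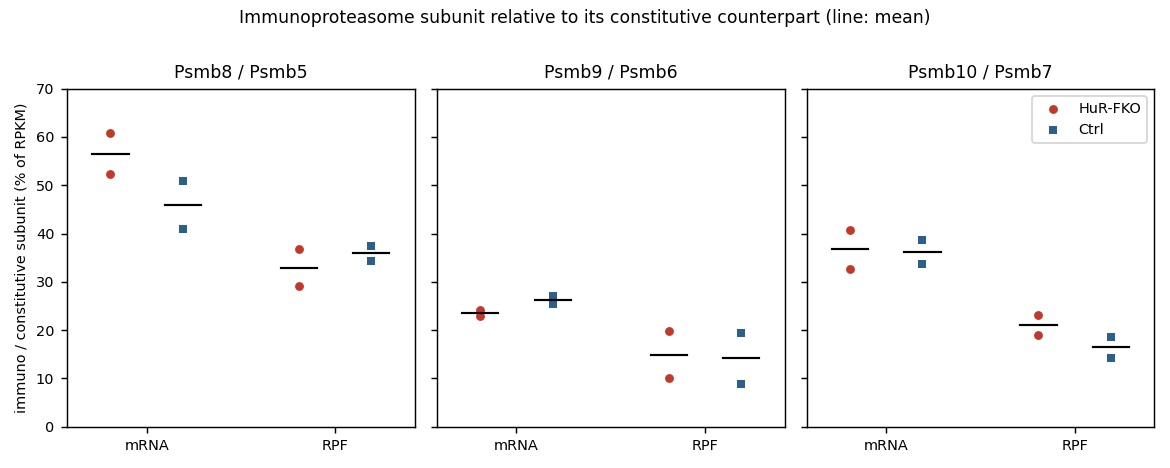
Level of each immunoproteasome gene as a percent of its constitutive counterpart (y axis, RPKM over RPKM), with HuR-FKO left of Ctrl in mRNA and in RPF. Points are libraries and lines the means of 2. The ratio of Psmb8 to Psmb5 in mRNA is 52.2% and 60.8% in HuR-FKO against 41.0% and 50.8% in Ctrl, and the ratios in RPF are lower than in mRNA for all 3 pairs in the group means.

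The promoters of the called genes Psmb5 and Psmb9, and of Psmb6, whose product Psmb9 replaces, are shown. Each window runs over 300 bases in GRCm38.p6 (RefSeq), from 250 bases before the start site to 50 after it, written on the strand of the gene. The windows are chr14:54617946-54618245 (minus strand) for Psmb5, chr11:70525107-70525406 (plus strand) for Psmb6 and chr17:34187281-34187580 (minus strand) for Psmb9. Capitals mark matches, on either strand, to the core of the antioxidant response element bound by NRF1 and NRF2 (TGACNNNGC), the CCAAT box bound by NF-Y (CCAAT) or the core of the interferon-stimulated response element (GAAANNGAAA).
Psmb5: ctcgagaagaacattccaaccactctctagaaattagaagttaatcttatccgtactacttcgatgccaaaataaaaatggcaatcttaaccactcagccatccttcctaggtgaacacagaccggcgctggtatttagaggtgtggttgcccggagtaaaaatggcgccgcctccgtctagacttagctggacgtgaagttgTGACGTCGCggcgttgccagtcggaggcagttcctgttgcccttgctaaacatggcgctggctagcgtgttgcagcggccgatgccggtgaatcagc
Psmb6: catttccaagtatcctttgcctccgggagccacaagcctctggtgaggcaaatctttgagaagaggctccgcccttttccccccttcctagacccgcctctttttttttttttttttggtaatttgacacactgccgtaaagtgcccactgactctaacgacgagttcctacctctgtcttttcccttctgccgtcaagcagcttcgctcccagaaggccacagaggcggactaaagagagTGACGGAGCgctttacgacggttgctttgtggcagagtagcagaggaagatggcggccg
Psmb9: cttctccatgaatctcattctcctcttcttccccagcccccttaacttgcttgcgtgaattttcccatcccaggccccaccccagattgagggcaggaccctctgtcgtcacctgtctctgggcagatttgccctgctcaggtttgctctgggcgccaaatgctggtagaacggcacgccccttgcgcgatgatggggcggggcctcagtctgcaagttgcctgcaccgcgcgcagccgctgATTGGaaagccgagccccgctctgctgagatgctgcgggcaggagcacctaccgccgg
The capitals are the antioxidant response core in Psmb5 and Psmb6 and a CCAAT box on the opposite strand in Psmb9.

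Of the 43 genes 37 had a promoter in the RefSeq table, with 40 windows; Psmb1, Psmb2, Psmb7, Psmc3, Psmd3 and Psmd7 did not. The antioxidant response core was found in 6 windows (15%), those of Psmb5, Psmb6, Psmc6, Psmd9, Psmd12 and Psme4. It was in 12.4% of all 32851 RefSeq windows and in 14.7% of the 8046 windows of listed genes, so the share of members is near both. The CCAAT box was in 32.5% against 37.4% of all windows, and the interferon-stimulated core in 10% (Psmb3, Psmd4, Psmd9 and Psme1) against 3.44%. A match is a string of letters and not a site shown to be bound. The RefSeq start used for the Psmb9 window lies 434 bases inside the GENCODE gene given above, and that for Psmb5 lies 27 bases inside. Tap1, which encodes a chain of the peptide transporter of antigen presentation, runs in the opposite direction to Psmb9, and its GENCODE start lies inside the Psmb9 gene, 211 bases from the GENCODE start of Psmb9. The Tap1 mRNA level was 28.9 and 23.9 RPKM in HuR-FKO against 31.3 and 33.0 RPKM in Ctrl (difference -0.28 ± 0.13, adjusted p = 0.18, limma), with no overlap of the genotypes.

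None of the 17 genes of the 19S cap passed in mRNA (limma), and their median difference was -0.13. Both HuR-FKO libraries lay below both Ctrl libraries for 10 of them (58.8%), where 27.8% of all genes did so. At an unadjusted p under 0.05 the counts were 3 lower and 0 higher, where 14.2% and 16.4% of all genes were. The 6 ATPases, which unfold substrates, had a median of -0.12, and both HuR-FKO libraries lay below Ctrl for Psmc3, Psmc5 and Psmc6. Psmc5 had 80.7 and 96.8 RPKM in HuR-FKO against 104 and 120 RPKM in Ctrl (difference -0.34 ± 0.13, adjusted p = 0.12, limma). Of the other base subunits, the scaffolds Psmd1 and Psmd2 lay below Ctrl in both HuR-FKO libraries and the ubiquitin receptor Psmd4 overlapped. In the lid, Psmd3, Psmd6, Psmd8, Psmd13 and Psmd14 lay below Ctrl, Psmd11 above it, and Psmd7 and Psmd12 overlapped.

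The 2 lid genes nearest to the threshold were Psmd13, a structural subunit, and Psmd14, the deubiquitinase. The Psmd13 mRNA level was 83.5 and 85.6 RPKM in HuR-FKO against 105 and 115 RPKM in Ctrl, a difference of -0.37 ± 0.11 with an adjusted p of 0.055 in limma, and it passed under median ratio scaling and with voom. The Psmd14 mRNA level was 59.8 and 62.7 RPKM in HuR-FKO against 76.5 and 78.0 RPKM in Ctrl, a difference of -0.33 ± 0.11 with an adjusted p of 0.080 in limma. Replicates of both genes were close and the genotypes did not overlap.

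The assembly chaperones and the activators showed no common direction in mRNA. Psmd5 and Psmd9, which hold parts of the ATPase ring during assembly, lay below Ctrl in both HuR-FKO libraries, while Psmd10 (gankyrin) and Psmg1, a chaperone of the alpha ring, overlapped. Psme1 and Psme2 form the 11S cap induced by interferon: Psme1 had 163 and 153 RPKM in HuR-FKO against 170 and 191 RPKM in Ctrl, and Psme2 overlapped. Psme3, the nuclear activator, had the highest estimate of all 43 genes, 56.9 and 59.2 RPKM in HuR-FKO against 53.5 and 47.6 RPKM in Ctrl. Its genotypes did not overlap, yet the difference of 0.20 ± 0.12 did not pass (adjusted p = 0.29, limma). Psme4, the large activator PA200, also lay above Ctrl in both libraries, and the inhibitor Psmf1 overlapped. GENCODE lists processed copies of Psmb5, Psmb6 and Psmb7 and a second gene, Psme2b, beside Psme2, and how reads that match several copies were counted is not given in the sources used here, so the levels of these 4 genes are less certain.

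**Figure D3:**
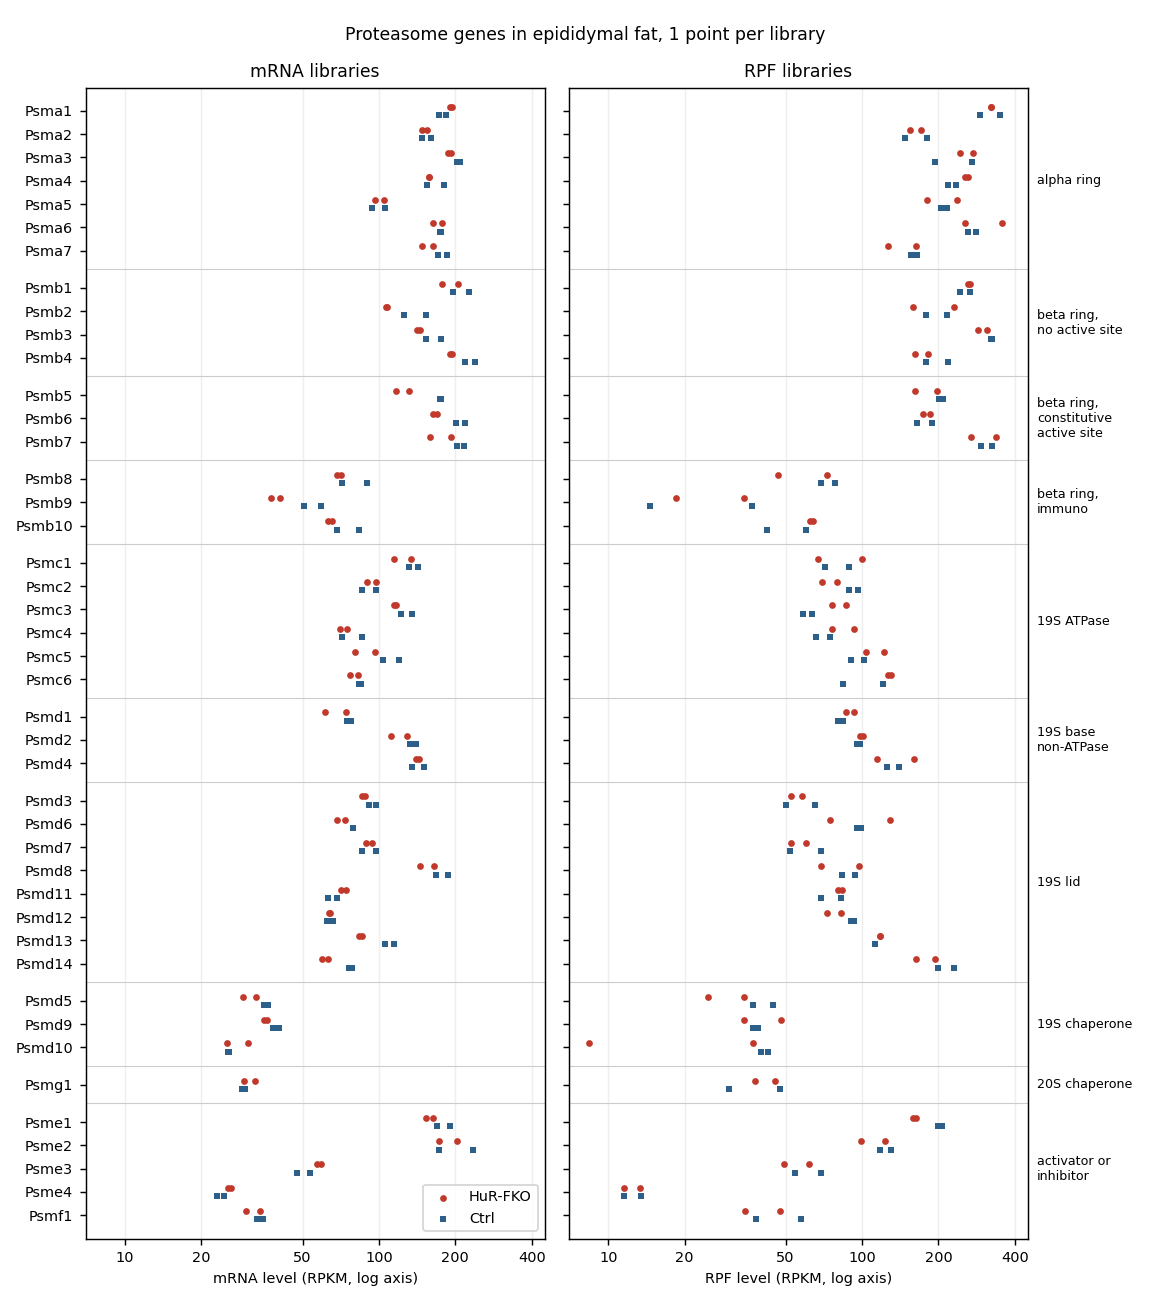
Level of each proteasome gene (x axis, RPKM on a log axis) in every library, mRNA on the left and RPF on the right, with HuR-FKO circles above Ctrl squares in each row. Psmb5 mRNA sits at 131 and 116 RPKM in HuR-FKO against 174 and 176 RPKM in Ctrl, and the 20S genes lie to the right of most 19S genes in RPF.

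No proteasome gene was shown to differ between genotypes in its ribosome footprints. In RPF 0 of the 43 genes passed in either direction, where 0.117% of all genes were lower and 0.327% higher, and at an unadjusted p under 0.05 the counts were also 0 lower and 0 higher (limma), where 6.11% of all genes were lower and 4.56% higher. With limma's voom on recovered reads 0 passed as well, where 0.887% of the genes tested were lower and 1.2% higher. The median difference was -0.00 against -0.05 over all genes, with 22 estimates below 0 and 21 above. Both HuR-FKO libraries lay below both Ctrl libraries for 8 genes (18.6%), against 24.1% of all genes, and above them for 8 (18.6%), against 17.7% of all genes. The share above Ctrl is near the background and the share below Ctrl is under it.

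The called mRNAs were not called in RPF. Psmb5 had 161 and 197 RPKM of RPF in HuR-FKO against 201 and 209 RPKM in Ctrl, from 83 to 184 reads a library. The genotypes did not overlap, but HuR-FKO replicate 2 nearly reached Ctrl, and the difference was -0.20 ± 0.16 (adjusted p = 0.71, limma). Psmb9 had 18.5 and 34.2 RPKM in HuR-FKO against 36.8 and 14.7 RPKM in Ctrl, from 7 to 28 reads a library. Replicates differed more than genotypes, and the difference was 0.11 ± 0.44 (adjusted p = 0.96, limma). A fall of the size seen in mRNA was not detectable for Psmb9 at this depth.

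Psmb6 had 185 and 173 RPKM of RPF in HuR-FKO against 189 and 164 RPKM in Ctrl (0.03 ± 0.16, adjusted p = 0.97, limma), and Psmb7 had 269 and 336 RPKM in HuR-FKO against 324 and 294 RPKM in Ctrl (-0.04 ± 0.16, adjusted p = 0.96). Both overlapped between genotypes. Psmb8 had 46.8 and 72.5 RPKM in HuR-FKO against 69.0 and 78.2 RPKM in Ctrl (-0.33 ± 0.24, adjusted p = 0.68), also with overlap. Psmb10 had 62.2 and 64.1 RPKM in HuR-FKO against 60.2 and 42.1 RPKM in Ctrl. It was the immunoproteasome gene whose HuR-FKO libraries both lay above Ctrl, although the difference of 0.32 ± 0.23 did not pass (adjusted p = 0.66, limma).

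The 6 ATPases had a median RPF difference of 0.24. Both HuR-FKO libraries lay above Ctrl for Psmc3, Psmc4, Psmc5 and Psmc6 (66.7%, where 17.7% of all genes did so). Psmc2 lay below Ctrl and Psmc1 overlapped. At an unadjusted p under 0.05 (limma) 0 were lower and 0 higher. Genes of one ring are not replicates, and the ATPases as a class were not tested. Psmc3 had the highest estimate of all 43 genes, 76.3 and 86.3 RPKM in HuR-FKO against 58.8 and 63.4 RPKM in Ctrl. The HuR-FKO libraries were both high, but the difference of 0.41 ± 0.18 did not pass (adjusted p = 0.48, limma). At the other end stood Psmd10, the chaperone gankyrin, with 8.38 and 37.2 RPKM in HuR-FKO against 40.0 and 42.5 RPKM in Ctrl. HuR-FKO replicate 1 alone was far below the rest. These values came from 5 and 9 reads in HuR-FKO against 21 and 14 reads in Ctrl, and the difference was -1.16 ± 0.55 (adjusted p = 0.50, limma). Without HuR-FKO replicate 2 it was -2.17 with an adjusted p of 0.045, so that 1 member was called.

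Translational efficiency (TE) is the ratio of RPF to mRNA, and it was compared between genotypes as the interaction of genotype and assay over all 8 libraries. In this comparison 0 of the 43 genes passed, where 0.0117% of all genes were lower and 0% higher, and the counts at an unadjusted p under 0.05 were 0 lower and 3 higher (Psmc3, Psmc5 and Psmd13, limma), where 5.05% of all genes were lower and 2.99% higher. With voom on recovered reads 0 passed too, where 0.0246% of the genes tested were lower and 0% higher. The estimate was above 0 for 29 of the 43, with a median of 0.08 against -0.07 over all genes. All 7 constitutive beta genes had estimates above 0, with a median of 0.22, and the 5 activators or inhibitors had estimates below 0, with a median of -0.12. Psmb9 had the highest estimate, 0.58 ± 0.55 (adjusted p = 0.79, limma), and Psmd10 the lowest, -1.28 ± 0.70 (adjusted p = 0.66). Both rest on the few RPF reads given above. The TE difference of Psmb5 was 0.30 ± 0.19 (adjusted p = 0.69).

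The levels of the subunits followed the parts of the complex. Per length, the 14 constitutive 20S genes had a median mRNA level of 162 RPKM in HuR-FKO and 177 RPKM in Ctrl, against 86.7 RPKM in HuR-FKO and 91.6 RPKM in Ctrl for the 17 genes of the 19S cap. The assembly chaperones were lowest, at 30.9 RPKM in HuR-FKO and 32.6 RPKM in Ctrl. The ratio of the 20S median to the 19S median was 1.90 and 1.94 in HuR-FKO mRNA and 2.02 and 1.87 in Ctrl mRNA. In RPF it was 2.80 and 2.58 in HuR-FKO and 2.56 and 2.43 in Ctrl. In each of the 4 pools the ratio was higher in RPF than in mRNA. The genotypes overlapped in mRNA, while in RPF both HuR-FKO libraries lay slightly above both Ctrl libraries.

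Levels varied less within the 20S core, whose subunits are built into the complex in equal number, and within the 19S cap than over all 43 genes. The standard deviation of the log2 level over the 14 constitutive genes ran between 0.30 and 0.33 for mRNA and between 0.36 and 0.45 for RPF, depending on the library. Over the 17 genes of the 19S cap it was 0.40 to 0.44 in mRNA and 0.45 to 0.49 in RPF, and without Psmd14 the RPF values were 0.31 to 0.41, which overlap those of the core. Over all 43 genes it was 0.87 to 0.93 in mRNA and 1.09 to 1.22 in RPF. The most abundant core mRNA exceeded the least abundant by 1.94 to 2.33 fold in a library, with Psma5, an alpha subunit, at the low end at 96.1 and 105 RPKM in HuR-FKO against 94.0 and 106 RPKM in Ctrl. In RPF the core range was 2.13 to 2.67 fold.

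Footprints per mRNA were set on a log2 scale on which the median gene of a pool is 0. By the mean of 2 pools, the median proteasome gene stood at 0.52 in HuR-FKO and 0.39 in Ctrl. By this mean 34 of the 43 genes were above 0 in HuR-FKO and 33 in Ctrl, and 29 were above 0 in both pools of each genotype. All 14 constitutive 20S genes had means above 0 in both genotypes, with medians of 0.96 in HuR-FKO and 0.63 in Ctrl. In both pools 13 of the 14 were above 0 in HuR-FKO and 12 in Ctrl. The immunoproteasome genes were lower, with medians of 0.09 in HuR-FKO and -0.30 in Ctrl. Their share of the summed level of the 6 active-site genes was 27.4% and 26.8% in HuR-FKO mRNA against 24.8% and 27.6% in Ctrl mRNA, and 17.2% and 19.5% in HuR-FKO RPF against 18.9% and 16.8% in Ctrl RPF. The share was lower in RPF than in mRNA in all 4 pools and overlapped between genotypes in both assays. The 20S genes had shorter transcripts than the 19S genes (median 1162 against 1636 bases), and the part of length in these levels was not tested.

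Psmd14 (NM_021526, GRCm38 chr2:61711694-61800376, plus strand) stood out within the lid. Its mRNA level was 0.72 and 0.73 times the median of the other lid genes in HuR-FKO, against 0.90 and 0.80 times in Ctrl. Its RPF level was 163 and 194 RPKM in HuR-FKO against 200 and 230 RPKM in Ctrl, which is 2.17 and 2.42 times the median of the other lid genes in HuR-FKO and 2.40 and 2.48 times in Ctrl. In mRNA it was thus among the low lid genes and in RPF the highest of the lid in every library. Its footprints per mRNA were at 1.86 in HuR-FKO and 1.74 in Ctrl, higher than 97.7% of all genes in HuR-FKO and 97.3% in Ctrl. At the low end of the lid was Psmd8, at -0.57 in HuR-FKO and -0.71 in Ctrl.

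**Figure D4:**
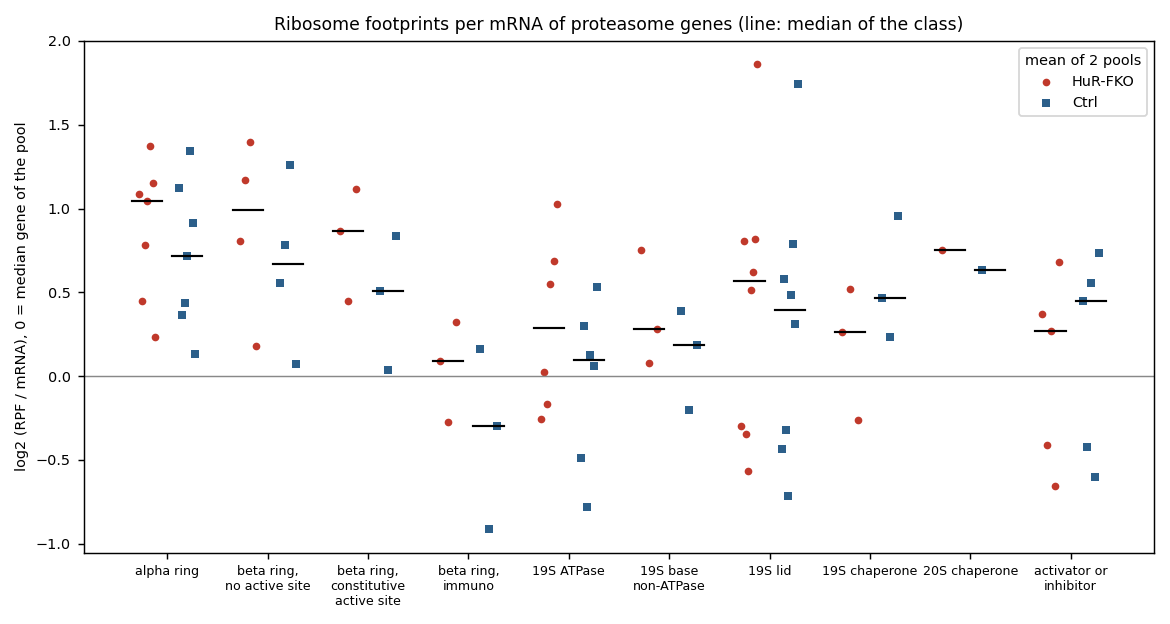
Footprints per mRNA (y axis, log2 of RPF over mRNA with the median gene at 0) of the 43 proteasome genes by role, with HuR-FKO left of Ctrl. Points are genes (means of 2 pools) and lines the medians of a class. The 14 constitutive 20S genes lie above 0 in both genotypes, and the highest point is Psmd14 at 1.86 in HuR-FKO and 1.74 in Ctrl.

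Genes of the pathway outside the naming rule are given by list. Both further subunits of the cap, Adrm1 and Shfm1 (also called Sem1), were listed, and 0 of the 2 passed in mRNA, at an unadjusted p under 0.05 or with voom. The ubiquitin receptor Adrm1 (Rpn13) had 115 and 99.6 RPKM in HuR-FKO against 114 and 125 RPKM in Ctrl (difference -0.16 ± 0.12, adjusted p = 0.42, limma). Pomp, the maturation factor of the beta ring, had 175 and 222 RPKM in HuR-FKO against 204 and 273 RPKM in Ctrl (-0.26 ± 0.16, adjusted p = 0.31). In Adrm1 and Pomp the genotypes overlapped.

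All 9 genes of the NRF1 pathway list were measured. Of these 0 passed in either direction in mRNA, RPF or TE (limma, and 0 with voom). Over all genes 6.54% were lower and 7.5% higher in mRNA (limma), 0.117% and 0.327% in RPF, and 0.0117% and 0% in TE. At an unadjusted p under 0.05 (limma) there was 1 higher in mRNA, where 16.4% of all genes were. Nfe2l1 itself had 208 and 197 RPKM of mRNA in HuR-FKO against 181 and 193 RPKM in Ctrl, both HuR-FKO libraries above Ctrl (0.11 ± 0.11, adjusted p = 0.54). Of 6 genes of peptide loading, which use the peptides the immunoproteasome makes, 5 were listed. In mRNA 1 of them fell and 0 rose, where 6.54% and 7.5% of all genes did. This was Tapbp, which encodes the chaperone tapasin, with 190 and 169 RPKM in HuR-FKO against 256 and 247 RPKM in Ctrl (-0.48 ± 0.12, adjusted p = 0.024). The genotypes did not overlap for Tapbp. The call held with the trend in length and G+C removed (-0.39, adjusted p = 0.031, limma). It was lost without HuR-FKO replicate 1 (-0.57, adjusted p = 0.086), without HuR-FKO replicate 2 (-0.40, adjusted p = 0.18) and in the shared fit (-0.48, adjusted p = 0.12). In RPF and TE 0 genes of these lists passed with limma or voom. At an unadjusted p under 0.05 (limma) 1 gene of peptide loading was lower in RPF, where 6.11% of all genes were. This was again Tapbp, with 178 and 198 RPKM of RPF in HuR-FKO against 226 and 283 RPKM in Ctrl (-0.43 ± 0.17, adjusted p = 0.42, limma).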

How the data were processed

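The authors deposited RPKM for the 8 libraries, computed from coding-sequence reads, coding length and the coding reads of a library. The labels name cutadapt 1.8.3, Bowtie 1.0.0 and TopHat2 2.0.9. Build, annotation and counting program: not given in the sources used here. GEO's labels also put a HuR antibody tag on the RPF libraries, for which the study's methods describe no immunoprecipitation. The table's log2 and log10 ratios are the authors' own comparisons and were not used. All listed values are above 1 RPKM.

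Reads per gene were recovered with GENCODE M21 coding lengths: 98.4% of the 8245 matched genes (96.3% of 8562) gave whole reads in all 8 libraries, within 0.001 read. Reads without molecular identifiers are not independent molecules.

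Values were tested as log2(RPKM + 1), where differences of low genes are understated. Genes with a mean above 1 RPKM in at least 1 genotype were kept, which removed none. limma 3.58.1 (R 4.3.3, eBayes with trend) compared genotypes within each assay, and TE as an interaction over 8 libraries. P-values were two-sided and Benjamini-Hochberg adjusted over 8562 genes, with a threshold of 0.05. Ratios of gene pairs were compared by an exact permutation test (Python 3.11.15, scipy 1.17.1). The fits were tested on simulated data. P-values measure the spread between 2 pools a genotype.

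All members were named by role. Fitted differences were given for members past the threshold, the 6 active-site genes and the extremes of each comparison, and for Psmb2, Psmc5, Psmd13, Psmd14 and TE of Psmb5 after their values were seen. Members and lists were chosen with earlier results of these data known. A list of proteasome-bound factors and a further promoter motif are not reported here. Alternatives were other filters (none, or a mean of 5 RPKM), another pseudocount (0.1), median ratio scaling, quantile normalization, eBayes without trend, a correction of each library for transcript length and G+C content (splines, 4 degrees of freedom), voom on recovered reads, the replicate number as a block, a shared fit, and leaving out each replicate. The labels pair mRNA and RPF of 1 pool, whose deviations correlated at 0.055 in HuR-FKO and 0.045 in Ctrl, and the pool as a block changed no TE call of a member.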

Additional observations from a re-analysis of the deposited data

How the results depend on the processing

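With 2 calls among the members in mRNA, the count was 1 without the trend in eBayes, 0 with the trend in length and G+C removed and 0 in the shared fit over all 8 libraries, and it ran between 0 and 5 as each replicate was left out. It was 3 under median ratio scaling and 3 with voom. With the replicate number as a block 7 members passed in mRNA. Same-numbered pools of HuR-FKO and Ctrl share only a number (correlation of deviations 0.155 in mRNA and -0.00 in RPF), so this is not a paired design, and the block changed no RPF call of a member. The median mRNA difference of the members stayed below 0 under each of these alternatives, between -0.19 and -0.08 as each replicate was left out. The RPF median was 0.037 under median ratio scaling, 0.046 under quantile normalization and -0.026 to 0.021 as each replicate was left out, and 0 to 1 member was lower. The TE median was 0.14 under median ratio scaling and 0.10 to 0.19 as each replicate was left out. Leaving out 1 replicate turned the sign of Elavl1 in mRNA (range -0.22 to 0.056), Psmb6 in RPF (-0.076 to 0.13), Psmb7 in RPF (-0.20 to 0.12), Psmb9 in RPF (-0.53 to 0.74), Psmb8 in TE (-0.42 to 0.15) and Psmb9 in TE (-0.16 to 1.32). Psmb7 in RPF was 0.0060 under median ratio scaling and Psmb9 in RPF -0.15 with voom. The causes were not tested. For the 20S core alone the spread of log2 levels averaged 0.31 in mRNA and 0.39 in RPF. RPF reads per gene, 5 to 362 for the members, limit what could be called in RPF and TE.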
